A study of Mus musculus with 20 samples.

Results

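The genes of cholesterol synthesis and of its control by sterols were followed in type 1 conventional dendritic cells (cDC1s) of mice, which cross-present antigen to CD8 T cells, by bulk RNA sequencing of sorted cells. The 27 genes were chosen by name and found through their Ensembl identifiers, and made up 27 of the 47729, 54532 and 55487 genes listed in the 3 deposited count tables. They comprise 9 genes from acetyl-CoA to the isoprenoid diphosphates, 3 from squalene to lanosterol, 9 from lanosterol to cholesterol, 5 regulators and carriers of sterols, and acetyl-CoA carboxylase 1 of fatty acid synthesis. All 27 passed the filter on low counts in each table.

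In the first table, sorted XCR1+CD8a+ cDC1s came from C57BL/6 mice of wild type, with 2 libraries from untreated mice and 2 from mice on day 15 of TLI/ATS, which combines irradiation of the lymphoid tissue with an antiserum to thymocytes and is used to induce transplant tolerance. The second held EpoR+ and EpoR- fractions of XCR1+CD8a+ cDC1s, 2 libraries each, from EpoR-tdTomato mice, in which a red fluorescent protein reports the erythropoietin receptor. Both of these fractions came from mice on day 15 of TLI/ATS. The third held 3 libraries each of spleen and peripheral lymph node cDC1s from Epor flox/flox mice (control) and from Epor-Xcr1-Cre mice (cKO), in which Cre under Xcr1 removes Epor from XCR1+ cells. Cells of both tissues were labelled CCR7+XCR1+SIRPa-, and those of the lymph node also as migratory. The Cre acts in any cell that has expressed Xcr1, and both groups of the third table carry the floxed allele. No Cre is named for the control mice, and no treatment or age is given for the mice of the third table. Nothing in the labels says whether libraries of a group came from separate animals, so the p-values measure only the spread between these libraries, which may be technical.

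Cells make cholesterol from acetyl-CoA through the mevalonate pathway, whose isoprenoid intermediates also serve protein prenylation, dolichol and ubiquinone. The membrane-bound transcription factor SREBP2 switches most of these genes on when sterol in the endoplasmic reticulum is low: its escort SCAP carries it to the Golgi for cleavage, and the INSIG proteins hold SCAP back when sterol is plentiful. Insig1 is itself a target of SREBP2, so its RNA belongs to the same feedback loop, and in dendritic cells and macrophages sterol supply also depends on engulfed cells, lysosomal release and efflux under the liver X receptors.

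Libraries held 40.6 to 77.6 M counts in the first table, 33.7 to 40.1 M in EpoR-sorted cells and 26.6 to 49.7 M in spleen and lymph node cells. Levels are given as normalised CPM, the share of a gene in the counts of a library scaled to the usual common total after correction of that total for composition by TMM factors, and they were compared within a table only. Epor itself stood at 3.02 and 2.07 CPM after TLI/ATS with 0 counts in both untreated libraries, at 14.02 and 17.2 CPM in EpoR+ against 0.101 and 0.327 CPM in EpoR- cells, at 0.0967 to 0.626 CPM in lymph node controls with 0 counts in all 3 lymph node cKO libraries, and at 0 to 0.202 CPM in both spleen groups, too few counts to check the spleen labels. All 12 genes of a cDC1 identity list, Xcr1 and Clec9a among them, were detected in every group. The libraries of one group always differed by more than counting noise. A chi-square comparison of their counts gave 14.2 to 294 per degree of freedom. The highest of these values, 294, was that of TLI/ATS replicates 1 and 2, while each stood at 160 to 222 from the untreated libraries. Where libraries differ beyond counting noise this measure grows with depth, so it does not rank pairs of unlike depth. The TLI/ATS libraries were the deepest, at 77.6 and 67.3 M counts against 46.2 and 40.6 M in the untreated ones. In the third table some libraries lay nearer to the other genotype of their tissue than to their own group by this measure. Spleen control replicate 3 stood at 30.3 to 56.4 from the spleen cKO libraries and at 164 and 142 from the other spleen controls. Lymph node control replicate 2 stood at 42.0 and 36.6 from cKO replicates 1 and 3 and at 83.9 and 92.5 from its own group, and lymph node cKO replicate 2 stood at 38.6 from control replicate 3 and at 76.8 and 88.2 from its own group. Values without these libraries are given beside the comparisons of cKO with control that they change.

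The stretch before the start site was examined first, because SREBP2 acts there together with the CCAAT-binding factor NF-Y. RefSeq promoters (GRCm38.p6, 250 bases before to 50 after a start) were found for 23 of the 27 genes. On either strand the letters CCAAT occurred in 20 of these 23 genes (86.96%), against 41.06% of all 27025 genes with a promoter of the same length. The sterol element letters TCACNCCAC occurred in 1 of 23, Hmgcs1, against 1.436% of all genes, and the shorter CACNCCAC, which lies within them, occurred in Acat2, Hmgcs1 and Insig1 (13.04% against 7.123%). The E-box letters CACGTG occurred in 5 genes (21.74% against 8.093%). These counts describe letters in this window and not binding. The 250 bases before the start are printed for the 5 genes on which the results below turn, 5′ to 3′ on the strand of the gene, with capitals for the CCAAT letters and for the sterol element letters, each on either strand (the other strand shows as the reverse complement).
Hmgcs1 (chr13:119690101-119690350, plus strand): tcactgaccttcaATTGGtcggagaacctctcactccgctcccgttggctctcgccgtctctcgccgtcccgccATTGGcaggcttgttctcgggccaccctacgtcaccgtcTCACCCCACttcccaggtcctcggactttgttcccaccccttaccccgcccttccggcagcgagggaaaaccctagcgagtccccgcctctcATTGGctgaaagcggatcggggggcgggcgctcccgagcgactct
Insig1 (chr5:28071162-28071411, plus strand): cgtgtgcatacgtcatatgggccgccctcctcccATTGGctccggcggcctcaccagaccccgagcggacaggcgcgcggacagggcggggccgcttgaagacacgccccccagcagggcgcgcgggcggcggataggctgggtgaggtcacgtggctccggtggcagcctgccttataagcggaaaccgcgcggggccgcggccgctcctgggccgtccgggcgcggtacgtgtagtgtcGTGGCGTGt
Srebf2 (chr15:82147019-82147268, plus strand): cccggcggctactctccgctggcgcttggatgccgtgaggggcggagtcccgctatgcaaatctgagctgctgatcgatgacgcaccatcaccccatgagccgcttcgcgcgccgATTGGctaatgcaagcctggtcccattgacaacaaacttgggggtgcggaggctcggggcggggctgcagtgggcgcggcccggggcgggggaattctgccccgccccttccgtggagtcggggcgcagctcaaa
Idi1 (chr13:8885356-8885605, plus strand): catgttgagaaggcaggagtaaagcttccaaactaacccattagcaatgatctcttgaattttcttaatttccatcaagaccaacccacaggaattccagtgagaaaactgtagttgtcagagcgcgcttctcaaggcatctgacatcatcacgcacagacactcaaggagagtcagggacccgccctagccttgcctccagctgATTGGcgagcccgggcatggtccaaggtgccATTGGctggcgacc
Ggps1 (chr13:14063489-14063738, minus strand): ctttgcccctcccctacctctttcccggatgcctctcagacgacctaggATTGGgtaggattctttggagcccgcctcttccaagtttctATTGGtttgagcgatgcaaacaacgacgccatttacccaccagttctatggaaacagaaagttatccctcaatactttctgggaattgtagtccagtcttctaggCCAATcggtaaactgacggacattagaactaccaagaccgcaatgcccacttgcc
In Hmgcs1 the sterol element letters began 137 bases before the start and CCAAT letters lay at 237, 176 and 45 bases, and in Insig1 the shorter sterol letters began 9 bases before it. In GRCm38 Hmgcs1 (ENSMUSG00000093930) spans chr13:119690379-119708260 on the plus strand, Insig1 (ENSMUSG00000045294) chr5:28071363-28078662 on the plus strand, Srebf2 (ENSMUSG00000022463) chr15:82147181-82205379 on the plus strand, Idi1 (ENSMUSG00000058258) chr13:8885501-8892451 on the plus strand and Ggps1 (ENSMUSG00000021302) chr13:14050659-14063488 on the minus strand. The start sites used for the promoters are those of RefSeq, and these gene spans come from GENCODE. The stretches printed for Insig1, Srebf2 and Idi1 end inside the spans, and in Insig1 the shorter sterol letters lie inside the span. Ggps1 carried 3 CCAAT matches, Idi1 carried 2 and Srebf2 carried 1, with no sterol element letters in the window.

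Per kb of the deposited gene length, which the first table lacks, the level of these genes spanned a wide range in every group. In spleen control cDC1s the highest was Pmvk, the phosphomevalonate kinase, at 67.4 CPM per kb, followed by Mvd at 38.2, Hmgcs1 at 35.2 and Srebf2, which encodes SREBP2, at 33.5. The lowest there were Dhcr7 at 0.515, Acaca at 0.624 and Lbr at 0.758 CPM per kb. Lymph node controls also had Pmvk (50.4), Mvd (41.9) and Srebf2 (35.7) at the top, but there Idi1 (30.4) and Fdft1 (26.9) stood above Hmgcs1 (17.99). In EpoR- and EpoR+ cells of the second table Srebf2 came first (78.6 and 50.6 CPM per kb), then Acly (48.2 and 45.4), and Fdps came last (0.188 and 0.129).

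Fdps, the farnesyl diphosphate synthase, had 92.5 to 188 CPM in the first table, 0.523 to 0.981 CPM in the second and 3.37 to 8.01 CPM in the third. Its exons share 26.7% of their bases with Gm43738 on the same strand (GENCODE vM21), and Gm43738 itself had 1.27 to 5.20 CPM in the first table and 0 counts in the others. The settings behind the first table's counts are not given in the sources used here, so counting and cells cannot be told apart in this gap, and the low values of Fdps outside the first table are uncertain. Other members share fewer exon bases with a neighbour: Fdft1 18.3% with Ctsb, Scap 13.2%, Tm7sf2 12.1% with Vps51, Hmgcs1 12.1% with the antisense gene Gm48342, Lbr 10.7%, Idi1 9.22% with Gm48574, Ggps1 5.44% with Arid4b, Cyp51 3.76% and Lss 3.53%. Where the counting used no strand these reads cannot be separated.

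The largest differences lay between tissues, but only the lymph node cells were labelled migratory, so tissue and sort cannot be told apart. Xcr1, by which both were sorted, stood at 27.9 ± 5.63 CPM in lymph node and 94.6 ± 11.4 CPM in spleen controls (SD, n = 3). In control mice 12 of the 27 genes passed edgeR's quasi-likelihood test at a Benjamini-Hochberg adjusted p under 0.05, 6 higher and 6 lower in lymph node than in spleen, where 41.3% of all 17362 genes passed (21% higher, 20.3% lower). At an unadjusted p under 0.05 there were 16 members and 49.2% of all genes, and 7 members had every lymph node library above every spleen library and 7 had every one below (25.6% and 23.9% of all genes). The share of members called was therefore near that of all genes, and the median member difference was 0.05 on the log2 scale against -0.01 for all genes. Both directions occurred among the early and the late enzymes. Acly, Acat2, Idi1 and Ggps1 of the early steps and Tm7sf2 and Nsdhl of the late steps were higher in lymph node, while Hmgcs1, Pmvk, Cyp51, Sc5d and the sterol handling genes Insig1 and Stard4 were lower. In these bulk libraries fewer cells of a type and less RNA per cell cannot be told apart.

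Hmgcs1, which condenses acetyl-CoA with acetoacetyl-CoA to HMG-CoA, had 160, 162 and 162 CPM in spleen controls and 85.4, 80.2 and 82.3 CPM in lymph node controls. Every lymph node library lay far below every spleen library. The log2 difference was -0.97 ± 0.09 (SE, n = 3 in each group, edgeR adjusted p = 4.09e-07). Idi1, the isomerase that makes dimethylallyl diphosphate, went the other way, with 44.3, 42.3 and 64.1 CPM in spleen and 125, 108 and 86.8 CPM in lymph node (1.08 ± 0.16, edgeR adjusted p = 7.04e-05). Ggps1, which makes the geranylgeranyl diphosphate used in prenylation, had the largest difference among the members, with 5.59, 8.75 and 14.5 CPM in spleen and 28.7, 28.3 and 29.8 CPM in lymph node (1.59 ± 0.26, edgeR adjusted p = 0.000159). For both genes every lymph node library lay above every spleen library, and for Ggps1 the spleen libraries were the more variable ones.

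Acly, which splits citrate to give cytosolic acetyl-CoA, had 43.8, 48.2 and 51.3 CPM in spleen and 86.6, 79.0 and 82.6 CPM in lymph node (0.79 ± 0.10, edgeR adjusted p = 1.91e-05). Tm7sf2, a sterol C14 reductase, had 16.01, 13.1 and 7.62 CPM against 21.8, 25.6 and 22.5 CPM (0.93 ± 0.23). Lymph node libraries were all above spleen libraries for both. Acat2, the cytosolic thiolase, differed by 0.64 ± 0.22 and Nsdhl, a dehydrogenase of C4 demethylation, by 0.58 ± 0.21. Among the lower genes outside the regulators, Pmvk differed by -0.42 ± 0.10, Cyp51, the lanosterol demethylase, by -0.31 ± 0.09 and Sc5d, the C5 desaturase, by -0.55 ± 0.18. The calls of Acat2, Cyp51, Nsdhl and Sc5d each ended when 1 library was left out: Acat2 without spleen control replicates 2 or 3 or lymph node control replicates 1 or 3, Nsdhl without spleen control 1 or 3 or lymph node control 2 or 3, Sc5d without spleen control 2 or 3 or lymph node control 2 or 3, and Cyp51 without spleen control 3. Adjusted p then ran from 0.0502 to 0.106.

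Insig1 and Stard4 were lower in lymph node. Insig1 had 39.6, 24.2 and 46.7 CPM in spleen controls and 18.9, 19.5 and 14.9 CPM in lymph node controls (-1.05 ± 0.20, edgeR adjusted p = 0.000569). Stard4, a soluble carrier that moves cholesterol between membranes, had 27.3, 17.02 and 29.5 CPM against 11.3, 11.6 and 11.5 CPM (-1.10 ± 0.19, edgeR adjusted p = 0.000275). Spleen replicate 2 was the lowest of its group for both genes and still exceeded every lymph node library. Srebf2 did not pass, at 241 ± 30.0 against 256 ± 37.7 CPM (SD, n = 3), nor did Scap (36.4 ± 4.93 against 36.8 ± 3.63 CPM) or Insig2 (20.5 ± 5.78 against 15.3 ± 3.35 CPM), and the squalene enzymes Fdft1, Sqle and Lss differed by 0.22, -0.24 and 0.06.

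**Figure D1:**
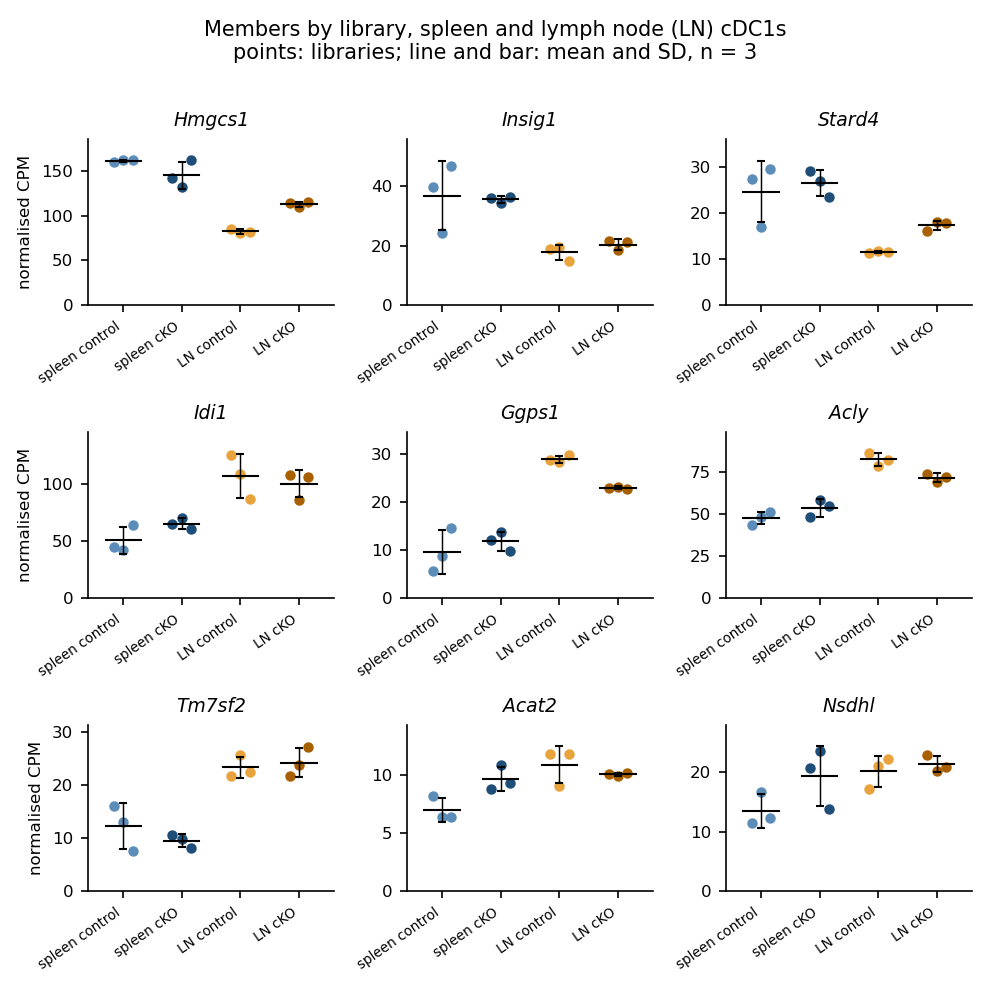
Normalised CPM of 9 genes in each spleen and lymph node (LN) library of control and Epor cKO mice, with mean and SD (n = 3). Hmgcs1, Insig1 and Stard4 lie lower and Idi1, Ggps1, Acly and Tm7sf2 higher in lymph node in both genotypes, while Acat2 and Nsdhl are separated by tissue in control mice and overlap in cKO mice.

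These differences are relative to the other genes of a library, and the scaling matters here. With library totals alone in place of TMM, a choice made after seeing the data, the median of all genes moved by 0.289 in control mice, and 10 members were higher and 3 lower. Of all 17362 genes, 5273 were then higher and 2408 lower. Hmgcs1 (-0.68), Insig1 (-0.75) and Stard4 (-0.80) remained lower, the calls of Pmvk, Cyp51 and Sc5d ended, and Mvd, Fdft1, Lbr and Srebf2 passed as higher. Over all genes the share of calls that were higher went from 50.93% to 68.65%. Acly, Idi1, Ggps1, Tm7sf2, Hmgcs1, Insig1 and Stard4 were called with the same direction in each of the 14 alternatives run, left-out libraries included.

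In cKO mice, whose libraries are separate from those of the control mice but share the fit, 9 of 27 genes passed, 4 higher and 5 lower, where 29.4% of all genes passed (14.1% higher, 15.3% lower). All 9 were among the 12 called in control mice, in the same direction. The same overlap was not counted over all genes, so it is not read as a trait of these members. An unadjusted p under 0.05 was reached by 11 members and 39.5% of all genes, and the groups were fully apart for 9 members upward and 8 downward (24.8% and 26.1% of all genes). Hmgcs1 had 143, 132 and 162 CPM in spleen and 114, 109 and 115 CPM in lymph node, a smaller gap with no overlap (-0.37 ± 0.09, n = 3 each, edgeR adjusted p = 0.00415). Ggps1 had 12.1, 13.7 and 9.80 CPM in spleen and 23.1, 23.3 and 22.8 CPM in lymph node (0.96 ± 0.25, edgeR adjusted p = 0.0101), and Idi1 had 64.9, 69.4 and 60.0 CPM against 107, 86.0 and 106 CPM (0.62 ± 0.16, edgeR adjusted p = 0.00829). Both were again higher in every lymph node library. Acly differed by 0.41 ± 0.10 and Tm7sf2 by 1.35 ± 0.23.

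Insig1 in cKO mice had 36.0, 34.2 and 36.4 CPM in spleen and 21.5, 18.3 and 21.2 CPM in lymph node (-0.81 ± 0.20, edgeR adjusted p = 0.00604), with tight groups and no overlap. Stard4 had 29.1, 26.9 and 23.3 CPM against 16.2, 18.05 and 17.7 CPM (-0.61 ± 0.19, edgeR adjusted p = 0.0232). Cyp51 (-0.32 ± 0.09) and Sc5d (-0.53 ± 0.18) were also lower. On library totals the median of all genes moved by 0.245, 7 members were higher and 1, Insig1, was lower, so that the calls of Hmgcs1 (-0.12), Cyp51, Sc5d and Stard4 (-0.37) ended with the same sign. Of all 17362 genes, 3996 were higher and 1752 lower on library totals. The call of Ggps1 ended without spleen cKO replicate 3 (edgeR adjusted p = 0.0518), and Cyp51, Sc5d and Stard4 each lost theirs without 3, 5 and 4 of the 6 libraries in turn. Without spleen cKO replicate 1 only 2 members remained lower.

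**Figure D2:**
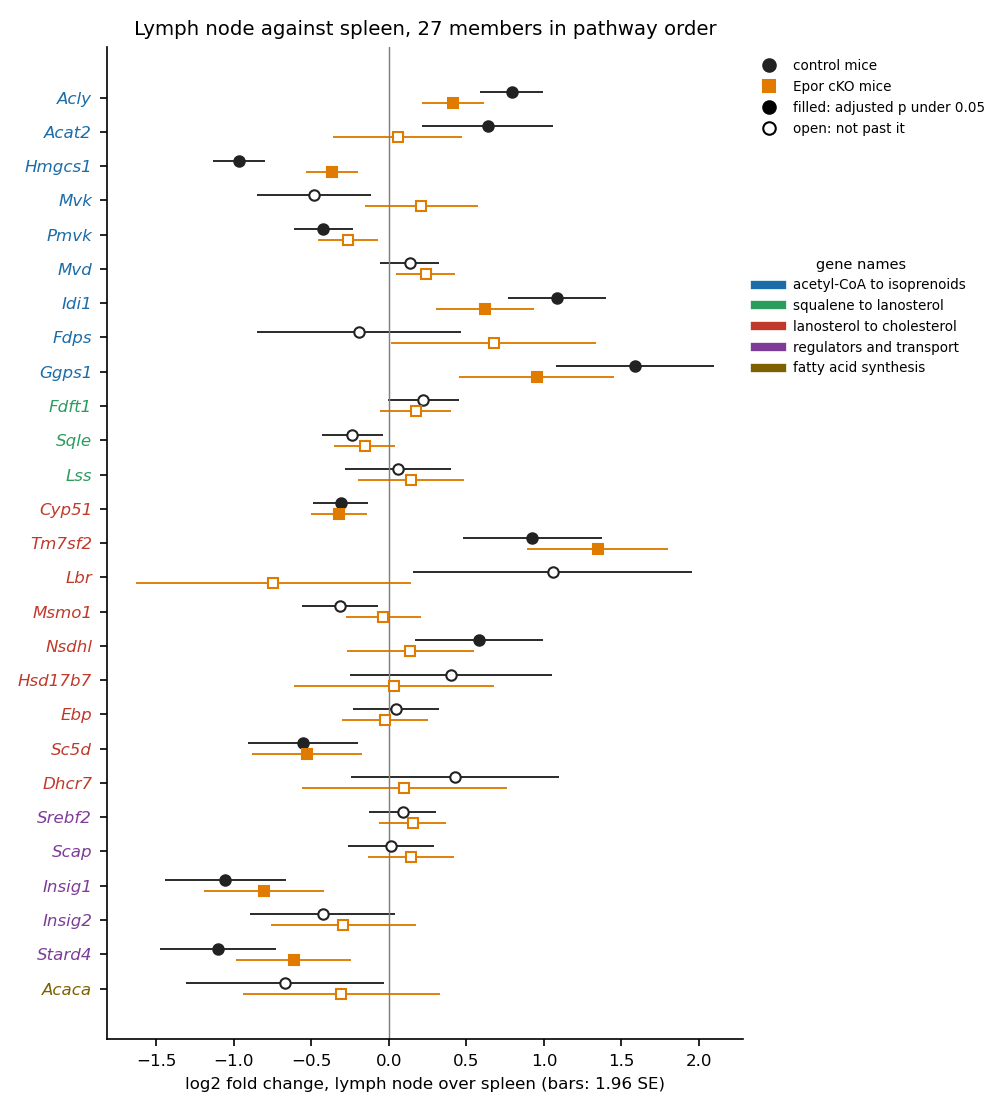
Log2 fold change of lymph node over spleen for the 27 genes in pathway order, in control mice (circles) and Epor cKO mice (squares). Points are filled where the adjusted p is under 0.05. Bars are the normal approximation to a 95% interval from the SE, which is too narrow for so few libraries. The filled points run from -1.10 (Stard4) to 1.59 (Ggps1) and fall on both sides of 0 in each genotype.

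Other genes of the pathway also differed between the tissues. Of the 16 genes listed for the rest of synthesis and SREBP processing, 2 were higher and 4 lower in control mice, and 1 was higher and 3 lower in cKO mice. Erlin1 and Ubxn4, which act in degradation at the endoplasmic reticulum, were lower in both (-0.97 and -0.66 in control, -0.46 and -0.46 in cKO mice), and Mbtps1, the protease that makes the first cut in SREBP, was higher in both (0.87 and 0.60). Of 17 tested genes of uptake, storage and efflux, 6 were higher and 4 lower in control mice. Apoe stood at 63.5 ± 2.42 CPM (SD, n = 3) in lymph node and 336 ± 28.9 CPM in spleen (-2.41 ± 0.09), Lipa, the lysosomal acid lipase, differed by -1.80 and Soat1, which esterifies cholesterol, by -1.65, while Gramd1b, a sterol transfer protein, differed by 0.97. Of 13 genes that use isoprenoids 2 were higher and 2 lower, among them Icmt, which methylates prenylated proteins (0.81 ± 0.17), and Nus1 of dolichol synthesis (-0.66 ± 0.15). Of 11 tested fatty acid genes 2 were lower in control mice, Scd1 (-0.90 ± 0.34) and Me1, the latter named after its values were seen, and 1 in cKO mice, Elovl5 (-0.82 ± 0.14).

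Markers of other cells and of maturation differed between the tissues beside these genes. In control mice 11 of 12 T cell markers were higher in lymph node (summed level 292 to 299 against 108 to 118 CPM), 6 of 9 plasma cell markers were lower and 1 higher (280 to 307 against 1473 to 1595 CPM), and all 9 tested pancreatic enzyme markers were lower (0 to 0.29 against 7.95 to 22.1 CPM, with 9 of the 10 at 0 in lymph node). Of 5 tested erythroid markers 4 were lower (0.514 to 1.05 against 92.8 to 112 CPM), with 6 of the 9 listed genes found at 0 in lymph node controls, Hbb-bs among them. Of 13 tested macrophage markers 3 were higher and 5 lower (147 to 171 against 311 to 321 CPM, Vsig4 at 0 in both), and of 16 proliferation genes 3 were higher and 8 lower. Of 10 B cell, 10 plasmacytoid dendritic cell and 10 cDC2 and monocyte markers 1, 2 and 1 were higher and 2 of each list were lower, and 4 of 7 tested stromal and epithelial markers were higher. Of 12 CCR7-linked maturation genes 8 were higher and 1 lower (38137 to 40218 against 22324 to 22658 CPM), and of 12 cDC1 identity genes 10 were lower (4284 to 4470 against 7419 to 7999 CPM). In cKO mice 10 of 12 T cell markers and 7 of 12 maturation genes were higher and 7 of 9 plasma cell markers, 9 of 9 pancreatic enzymes and 11 of 12 identity genes were lower. The summed level of the cDC2 and monocyte list was 107 to 118 CPM in lymph node against 85.8 to 103 CPM in spleen of control mice, and 74.7 to 96.6 against 122 to 138 CPM in cKO mice, the opposite order. The part of these lists in the difference of the sterol genes was not tested.

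Few of these genes passed between cKO and control libraries. In lymph node 1 of 27 passed, Hmgcs1, where 0.455% of all genes passed (0.288% higher, 0.167% lower). It had 85.4, 80.2 and 82.3 CPM in controls and 114, 109 and 115 CPM in cKO libraries, with no overlap (0.45 ± 0.09, n = 3 each, edgeR adjusted p = 0.0257). The size of the difference held between 0.43 and 0.47 whichever library was left out, but the call ended each time (adjusted p from 0.0508 to 0.133). Without control replicate 2 the difference was 0.43 (adjusted p = 0.108), and without cKO replicate 2 it was 0.47 (adjusted p = 0.0508). It also ended with only the 6 lymph node libraries fitted (adjusted p = 0.0667), and held with DESeq2.

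Of the other members in lymph node, Stard4 and Msmo1 passed only an unadjusted p of 0.05, which 7.51% of all genes did. Stard4 had 11.3, 11.6 and 11.5 CPM in controls and 16.2, 18.05 and 17.7 CPM in cKO libraries (0.59 ± 0.19, edgeR adjusted p = 0.349), and Msmo1, the C4 methyl oxidase, had 57.3, 62.5 and 48.1 against 72.2, 67.4 and 71.5 CPM (0.33 ± 0.12, edgeR adjusted p = 0.519). Both groups were separate for each gene. Full separation of the groups was seen for 8 members upward and 3 downward (7.8% and 7.72% of all genes). Over all members 20 differences were positive and 7 negative, with a median of 0.15 against 0 for all genes. Insig1 (0.20 ± 0.20) and Srebf2 (0.21 ± 0.11) did not pass. Of 57 other pathway genes tested 1 passed, Apoe, which was lower in cKO libraries (47.1 ± 0.611 against 63.5 ± 2.42 CPM, -0.43 ± 0.08, edgeR adjusted p = 0.0284). Of the marker lists, 2 of 12 cDC1 identity genes were higher in cKO libraries and the lists of other cells had 0 genes past the threshold. The summed T cell level was 235 to 261 CPM in cKO and 292 to 299 CPM in control libraries, and its part in the Hmgcs1 difference was not tested.

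In spleen 0 of 27 members passed between cKO and control libraries, where 0.611% of all genes passed (0.49% higher, 0.121% lower). DESeq2 also called 0, and 5 had an unadjusted p under 0.05 (Acat2, Idi1, Lbr, Nsdhl and Dhcr7), as did 13% of all genes. The groups were fully apart for 5 members upward and 0 downward (9.54% and 8.4% of all genes). Without spleen control replicate 3, 379 genes passed in place of 106, and 1 of them was a member, Idi1. Dhcr7, which makes cholesterol in the last step of one branch, had 1.87, 3.41 and 3.71 CPM in controls and 5.04, 4.46 and 6.49 CPM in cKO libraries, with no overlap (0.83 ± 0.34, edgeR adjusted p = 0.317). Lbr, the lamin B receptor with sterol reductase activity, had 1.15, 4.25 and 5.43 against 7.09, 8.95 and 7.70 CPM (1.13 ± 0.46, edgeR adjusted p = 0.311). Idi1 had 44.3, 42.3 and 64.1 against 64.9, 69.4 and 60.0 CPM (0.37 ± 0.16) and passed only without spleen control replicate 3 (edgeR adjusted p = 0.0472). Hmgcs1 stood at 162 ± 1.11 in controls and 146 ± 15.3 CPM in cKO libraries (SD, n = 3; -0.15 ± 0.09). Beside these, 3 of 9 plasma cell markers were higher in the cKO libraries (summed level 2879 to 3188 against 1473 to 1595 CPM), 1 of 13 tested macrophage markers was lower and 1 of 12 cDC1 identity genes higher, and their part was not tested.

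The difference between the 2 effects of Epor loss was tested directly. By edgeR 0 of the 27 members passed (0.317% of all genes did, 0.127% with a larger effect in lymph node and 0.19% with a smaller one), and 4 had an unadjusted p under 0.05 (Acly, Hmgcs1, Mvk and Lbr), as did 12.5% of all genes. Hmgcs1 came closest, with a difference of 0.60 ± 0.12 between the lymph node and spleen effects (edgeR adjusted p = 0.0522). It passed in 6 of 19 alternatives, DESeq2 among them, with adjusted p from 0.000326 to 0.175 over all of them. The same term measures how much smaller the tissue gap of Hmgcs1 was in cKO mice than in control mice. Lbr differed by -1.80 ± 0.64 (edgeR adjusted p = 0.264) and rested on levels of 1.15 to 8.95 CPM.

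**Figure D3:**
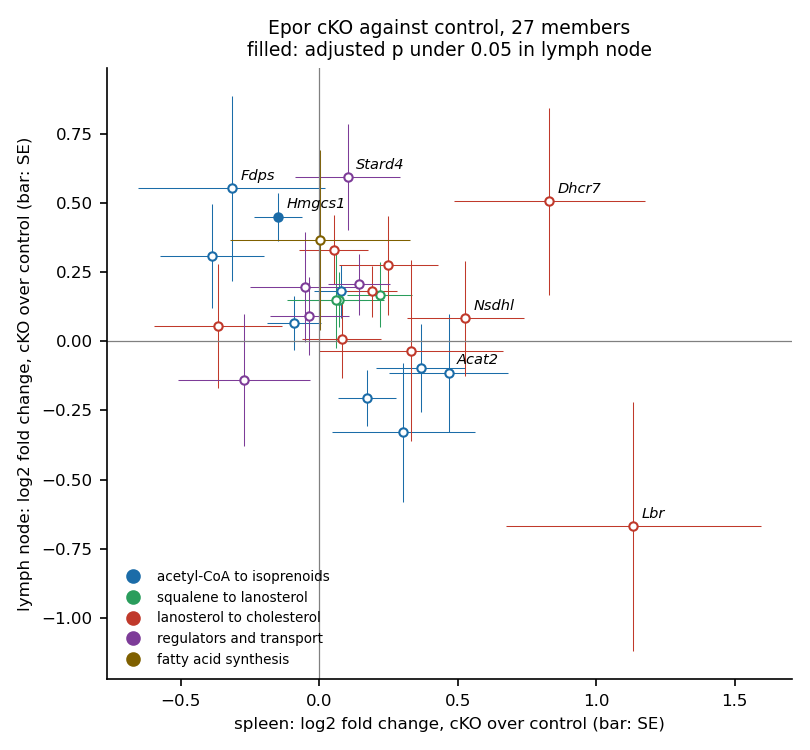
Log2 fold change of Epor cKO over control in spleen (x axis) and lymph node (y axis) for the 27 genes (bars, SE; n = 3 per group), coloured by step of the pathway. Hmgcs1, at -0.15 in spleen and 0.45 in lymph node, is the filled point (adjusted p under 0.05 in lymph node).

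In EpoR+ against EpoR- cDC1s after TLI/ATS, 2 of 27 members passed, where 16.7% of all 15627 genes did (11.9% higher, 4.75% lower). Both are among the 5 regulators and carriers of sterols, of which Scap (-0.16), Insig2 (-0.24) and Stard4 (0.09) did not pass. Insig1 had 64.8 and 84.0 CPM in EpoR+ and 39.0 and 42.0 CPM in EpoR- libraries (0.88 ± 0.16, n = 2 each, edgeR adjusted p = 0.0191). Srebf2 had 395 and 331 CPM in EpoR+ and 579 and 550 CPM in EpoR- libraries (-0.64 ± 0.12, edgeR adjusted p = 0.0218). For both genes the fractions were clearly apart, in opposite directions. Both calls ended without EpoR+ replicate 2 (0.69, adjusted p = 0.0881, and -0.51, adjusted p = 0.0951) and held in the other 10 of 11 alternatives.

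The enzymes of the pathway did not follow one direction. EpoR+ libraries were fully above EpoR- libraries for 5 members and fully below for 9 (32% and 26.1% of all genes). Dhcr7 had 38.0 and 29.9 against 22.1 and 19.2 CPM (0.72 ± 0.18, edgeR adjusted p = 0.0544) and passed in 7 of 11 alternatives. Acaca, the first enzyme committed to fatty acid synthesis, had 53.7 and 41.1 against 79.4 and 67.4 CPM (-0.63 ± 0.17, edgeR adjusted p = 0.0662) and passed in 4 of 11. Neither gene overlapped between the fractions. Pmvk, Ggps1 and Nsdhl had an unadjusted p under 0.05 with differences of -0.39, -0.39 and -0.46, so that 7 members reached it in all, and 29.9% of all genes. Hmgcs1 stood at 37.7 ± 4.87 against 40.8 ± 1.10 CPM (SD, n = 2; -0.12 ± 0.14), Sqle at -0.10 ± 0.21 and Cyp51 at -0.21 ± 0.17. The member median was -0.10 against 0.02 for all genes. Fdft1, at 0.16 ± 0.20, shares exon bases with Ctsb, which had 6031 and 6487 CPM in EpoR+ and 556 and 525 CPM in EpoR- libraries.

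**Figure D4:**
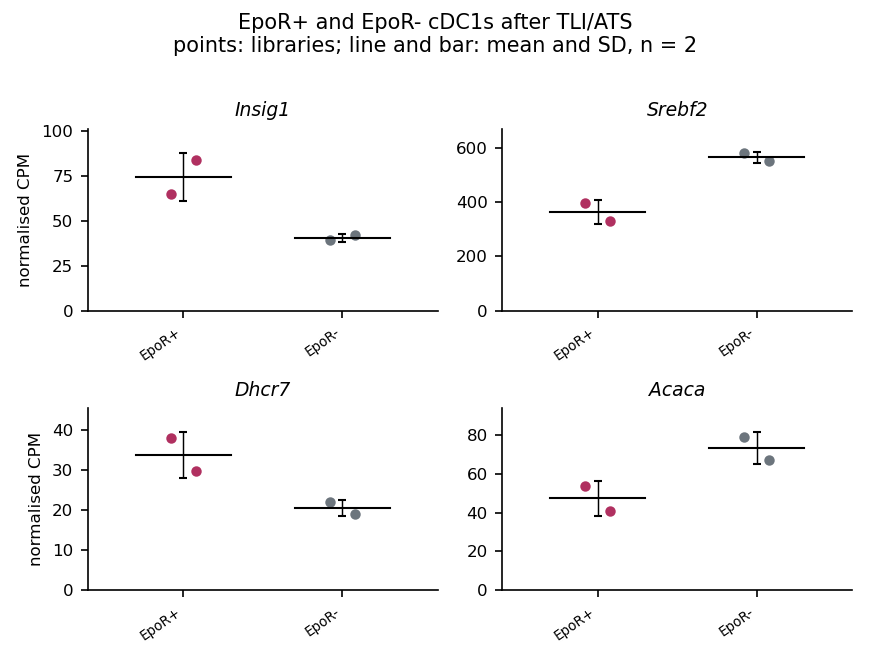
Normalised CPM of 4 genes in the EpoR+ and EpoR- libraries, with mean and SD (n = 2). Insig1 and Dhcr7 lie higher and Srebf2 and Acaca lower in EpoR+ cells with no overlap, and Dhcr7 (adjusted p = 0.0544) and Acaca (0.0662) did not pass the threshold.

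Other genes of sterol handling also differed between the fractions. Of 16 genes listed for the rest of synthesis and SREBP processing, 4 were higher and 2 lower in EpoR+ cells. Erlin2 (1.21 ± 0.12) and Pgrmc1 (0.74 ± 0.15) were higher and Erlin1 (-0.87 ± 0.12) lower. Of 17 tested genes of uptake, storage and efflux 9 were higher and 0 lower, with a median of 0.98. Abca1, the cholesterol exporter, stood at 204 ± 44.6 against 3.06 ± 0.452 CPM (SD, n = 2; 6.06 ± 0.24), Nr1h3, which encodes LXR alpha, at 182 ± 24.99 against 2.74 ± 1.42 CPM (6.06 ± 0.45), and Lrp1, an endocytic receptor, at 1485 ± 2.89 against 31.3 ± 3.32 CPM (5.57 ± 0.13). Of 11 tested fatty acid genes, Fads1 (1.14 ± 0.12) and Acsl3 (1.22 ± 0.23) were higher and Fasn, the fatty acid synthase, was lower (228 ± 28.4 against 404 ± 51.0 CPM, -0.83 ± 0.14). Of 13 isoprenoid users 1 was lower, Coq2 of ubiquinone synthesis (-0.50 ± 0.11).

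Macrophage markers moved with the fractions. All 16 were higher in EpoR+ cells, with summed levels of 23220 to 23270 CPM against 441 CPM in both EpoR- libraries, none was at 0 in either group, and the most abundant was Vcam1. All 9 tested erythroid markers were also higher (1795 to 2209 against 173 to 264 CPM), 7 of 10 markers of cDC2s and monocytes were higher and 1 lower (2815 to 2845 against 440 to 520 CPM), and 10 of 12 cDC1 identity genes were lower (8649 to 10053 against 17146 to 19086 CPM). The summed level of pancreatic enzymes was 2845 CPM in one EpoR- library and lay between 163 and 196 CPM in the others, and the calls of Insig1 and Srebf2 held with either EpoR- library left out. The part of these cells in the sterol gene differences was not tested. With the marker genes of other cells left out of the fit, Insig1 and Srebf2 kept their calls and Dhcr7 passed. Immunoglobulin and T cell receptor genes were left out too, while the cDC1 identity, maturation and proliferation lists stayed in. This setting removes marker genes and not cells.

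TLI/ATS itself left 0 of 27 members past the threshold against untreated cDC1s, where 2.7% of all 17236 genes passed (0.499% higher, 2.2% lower). DESeq2 called 2, Lss as higher and Dhcr7 as lower, and 4 had an unadjusted p under 0.05 (Sqle, Lss, Cyp51 and Dhcr7), as did 15.7% of all genes. Lss, the cyclase that forms lanosterol, had 18.7 and 17.6 CPM after TLI/ATS and 10.3 and 10.4 CPM in untreated cells (0.81 ± 0.20, n = 2 each, edgeR adjusted p = 0.129). Sqle, the squalene epoxidase, had 50.4 and 51.5 against 36.2 and 38.11 CPM (0.45 ± 0.16, edgeR adjusted p = 0.284), and Cyp51, the next enzyme after Lss, had 65.7 and 71.3 against 49.0 and 45.6 CPM (0.53 ± 0.17, edgeR adjusted p = 0.216). In these 3 neighbouring steps both treated libraries lay above both untreated ones.

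Dhcr7 went the other way, with 9.27 and 11.1 CPM after TLI/ATS and 16.9 and 22.1 CPM in untreated cells (-0.93 ± 0.24, edgeR adjusted p = 0.15). The groups were separate. In all, 10 members had both treated libraries above the untreated ones and 4 had them below, shares that were 22.5% and 25% among all genes. The median over members was 0.21 against 0.02 for all genes, which on library totals alone moved by -0.123. Insig1 (25.2 ± 4.43 against 24.7 ± 2.46 CPM, SD, n = 2), Hmgcs1 (52.6 ± 1.44 against 51.3 ± 5.96 CPM) and Idi1 (29.4 ± 4.30 against 28.3 ± 0.684 CPM) lay within the spread of their groups.

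The 2 TLI/ATS libraries disagreed on several members while the untreated pair was close. Acly had 178 and 81.7 CPM after TLI/ATS and 96.8 and 102 CPM in untreated cells, Lbr had 152 and 84.3 against 121 and 124 CPM, and Fdps had 113 and 188 against 95.1 and 92.5 CPM. Replicate 1 was the high one for Acly and Lbr and replicate 2 for Fdps. Over the alternatives run, the log2 difference ran from -0.28 to 0.84 for Acly and from -0.54 to 0.32 for Lbr. Without either TLI/ATS library the spread came from the untreated pair alone, so calls from those fits are not counted here. All 12 T cell markers and 9 of 10 B cell markers fell after TLI/ATS (summed levels 24.1 to 34.1 against 639 to 645 CPM and 65.6 to 69.0 against 614 to 630 CPM), 8 of 10 plasmacytoid dendritic cell markers fell, and 10 of 16 macrophage, 7 of 8 tested erythroid and 3 of 16 proliferation genes rose. Their part in the values of the sterol genes was not tested. Of 57 other pathway genes 1 passed, Nr1h3, which rose from 1.45 ± 0.384 to 8.70 ± 0.217 CPM (2.58 ± 0.31, edgeR adjusted p = 0.0246).

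**Figure D5:**
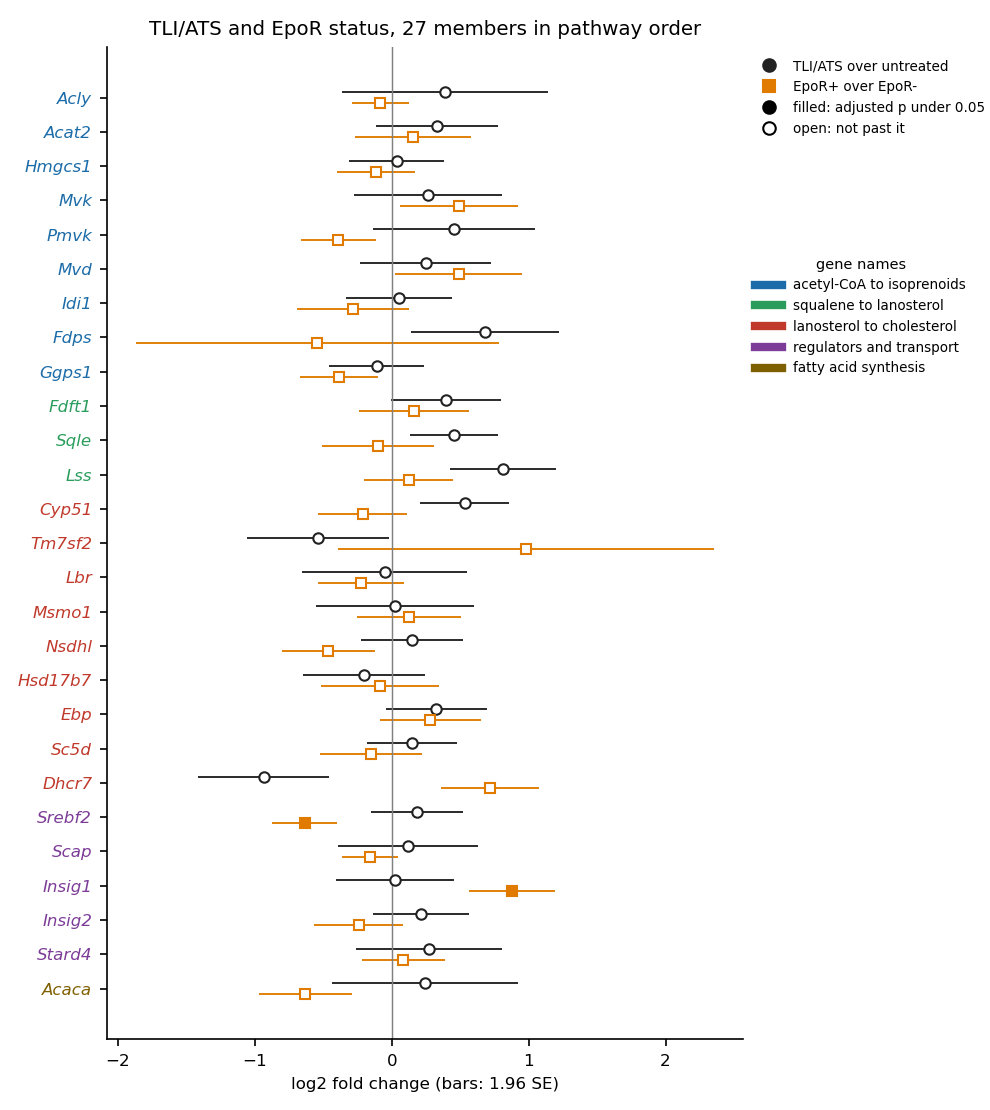
Log2 fold change of the 27 genes in pathway order for TLI/ATS over untreated cDC1s (circles) and for EpoR+ over EpoR- cDC1s (squares), n = 2 per group. Points are filled where the adjusted p is under 0.05. Bars are the normal approximation to a 95% interval from the SE, which is too narrow for so few libraries. A bar clear of 0 therefore need not mean an unadjusted p under 0.05, as for Fdps after TLI/ATS (edgeR unadjusted p = 0.0558). The filled points are Insig1 (0.88) and Srebf2 (-0.64) in EpoR+ against EpoR- cells.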

How the data were processed

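RNA of sorted cDC1s was sequenced in 20 libraries of 8 groups. All values are whole-number counts of reads on each gene, as the authors deposited them, with no normalization. Per the submitters' processing notes and the file headers, reads were aligned with HISAT2 (2.1.0 for the third table) to GRCm38 and counted with featureCounts (2.0.3 in the second and 2.0.8 in the third table; in both, each read of a pair was counted on its own and strand was ignored). Amplified reads carry no molecular identifiers. Groups were taken from the sample titles. Symbols came from the tables and GENCODE vM21 (98.94% to 99.77% of genes). Each table was fitted alone in R 4.3.3 with edgeR 4.0.16: filterByExpr (minimum count 10, total 15), TMM, robust quasi-likelihood fit and Benjamini-Hochberg adjustment over all genes, threshold 0.05, with no replicate block, and a mean per group over all libraries of the third table. The SE of a log2 fold change was computed from its F statistic. DESeq2 1.42.0, RLE factors, 2 other filters, a replicate block and left-out libraries were alternatives. On simulated counts with 200 changed genes, 18% of 2-fold changes were recovered for TLI/ATS, 31% for EpoR+ and 58% to 70% in the third table. The changed genes were drawn from the better counted ones, so these shares do not cover members with few counts. Besides the 27 members, 61 genes in 4 lists of related pathways and 12 marker lists were followed. Me1 aside, named genes of the 4 lists come from the 3 largest calls per list, direction and comparison with a mean of at least 5 CPM. Not all of these calls are named. The members, lists and tests were chosen with earlier results of these data known. Some genes of these lists are counted but not reported by name here.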

Additional observations from a re-analysis of the deposited data

How the results depend on the processing

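Under the other settings tried, including library totals in place of TMM (chosen after seeing the data), 24 member fold changes that passed gave 330 values, of which 281 kept direction and call, 49 lost the call and 0 turned round. Library totals gave 10 members higher and 3 lower between tissues in control mice and 7 higher and 1 lower in cKO mice, by their construction a shift of all genes. Of all 17362 genes, 5273 were higher and 2408 lower in control mice, and 3996 and 1752 in cKO mice.

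For TLI/ATS, DESeq2 called 1 member higher, 1 lower and 1320 genes in all, and a replicate block 1264 genes. Leaving out 1 library gave 0 to 11 members higher, 0 to 3 lower and 476 to 4908 genes, with 4908 without TLI/ATS replicate 1 and 4679 without TLI/ATS replicate 2. For EpoR+ against EpoR-, 2 members were higher with library totals, no filter, the stricter filter, leaving out marker genes of other cells, and DESeq2. With no filter and with DESeq2, 2 were lower. A replicate block gave 4 higher (Mvd, Tm7sf2, Dhcr7, Insig1), 5 lower (Pmvk, Ggps1, Nsdhl, Srebf2, Acaca) and 5347 genes. Leaving out 1 library gave 0 to 2 higher, 0 to 2 lower and 1454 to 2600 genes.

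For Epor loss in spleen, no filter called 436 genes, leaving out marker genes of other cells 20, a replicate block 40 and DESeq2 642. Leaving out 1 library gave 31 to 379 genes and 0 to 1 member higher, Idi1 without spleen control replicate 3. In lymph node no filter called 170 genes, leaving out marker genes of other cells 49, DESeq2 204 and the fit of only the 6 libraries 44. The replicate block and the fit of 6 libraries left 0 members higher, with an adjusted p for Hmgcs1 of 0.0626 and 0.0667, and so did each left-out library (0 to 0 members, 51 to 72 genes). For the difference of the effects, RLE factors, no filter, the stricter filter and DESeq2 called 1 member higher, Hmgcs1, and no filter called 1 lower, Lbr. Genes called were 364 with no filter, 95 with the stricter filter, 15 without the marker genes of other cells, 34 with a replicate block and 514 with DESeq2. Leaving out 1 library gave 29 to 222 genes and 0 to 1 member higher (1 without spleen control replicate 3 or spleen cKO replicate 3). Between tissues in cKO mice, leaving out 1 library gave 2 to 4 members lower. The causes were not tested.

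The labels do not say that a replicate number pairs libraries. Deviations of same-numbered libraries correlated at 0.42 in the second table, at -0.0253 in the first and at -0.0567 to 0.043 in the third. The replicate block changed no member call between tissues. With 2 libraries per group, 18% (TLI/ATS) and 31% (EpoR+) of 2-fold changes in better counted genes were recovered in simulated counts. Of 4-fold changes 78% and 90% were recovered, and 18 of 114 and 19 of 140 calls were false.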
